A study of Mus musculus with 12 samples.

Results

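The 3′ external transcribed spacer (3′ETS) is the stretch of the ribosomal RNA (rRNA) precursor that follows 28S rRNA, and it was taken as positions 12838 to 13400 of the 13400-nt reference to which the reads had been aligned. It holds 563 of the 13400 positions, or 4.20%. The members were chosen by position, and the edge at 12838 is the largest fall in depth after the rise that opens 28S, placed on the mean of all 12 libraries without regard to group. Distances below count from 1 at the first nucleotide after 28S. Reads over each position were counted in 12 libraries of total RNA from which rRNA had not been depleted, 3 in each of 4 groups. The cell groups were Hepa1c1c7, a mouse hepatoma line, with nuclear RNA taken 3 days after control siRNA (scrambled luciferase) or Eif3m siRNA, each at 10 uM. The liver groups were FVB/N mice aged 6 to 8 weeks, injected into the tail vein with either siRNA in lipid nanoparticles (LNP) at 0.5 mg/kg and kept for 13 days, and RNA came from ground whole liver with all of its cell types. Every control library therefore carried an siRNA, and LNP in the mice, and no untreated sample enters the comparisons. The labels do not say whether replicates were separate cultures or whether a liver library came from 1 animal, so the p-values measure only the spread between these libraries.

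RNA polymerase I makes 1 long precursor in which 18S, 5.8S and 28S rRNA are separated and flanked by spacers. The 3′ETS is the last spacer to be transcribed, it lies between 28S and the site of transcription termination, and it is removed early, on the path that frees the 3′ end of 28S. Spacers are degraded after they are cut out, so reads over the 3′ETS come from precursors that still carry it or from cut pieces not yet degraded. eIF3m is a subunit of eIF3, the factor that helps load the small ribosomal subunit onto messenger RNA. The study compared rRNA precursors with and without its knockdown. The depths analysed here cover the rRNA precursor alone, so neither the level of Eif3m nor marker genes of hepatocytes or other liver cells were measured.

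The 3′ETS was the shallowest of the 7 regions of the precursor in 12 of 12 libraries. Its mean depth in control cells was 39.9, 67.5 and 62.0 reads per position in replicates 1, 2 and 3. In Eif3m siRNA cells it was 227, 152 and 170 reads per position. Every knockdown library of the cells was deeper than every control library before any scaling. In control livers the mean depth was 9.28, 5.37 and 7.02 reads per position, and in Eif3m siRNA livers it was 16.5, 12.2 and 11.1. These raw liver depths did not overlap either, but the livers differed in overall depth, with 26971 to 44498 reads per position over the whole precursor in controls and 41958 to 46799 after knockdown. Overall depth of the cell libraries lay between 10462 and 15537. The summed rises in depth along the spacer, which roughly count read starts, came to 315 to 1609 in cells and to 45 to 141 in livers, so liver values rest on few reads. Rises were most often followed by a fall 75 nt later in both systems, which gives the apparent read length. A read of that length that crosses the 28S edge covers up to 75 nt of the spacer. Close to the last position, only reads that end within the reference can be counted.

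**Figure D1:**
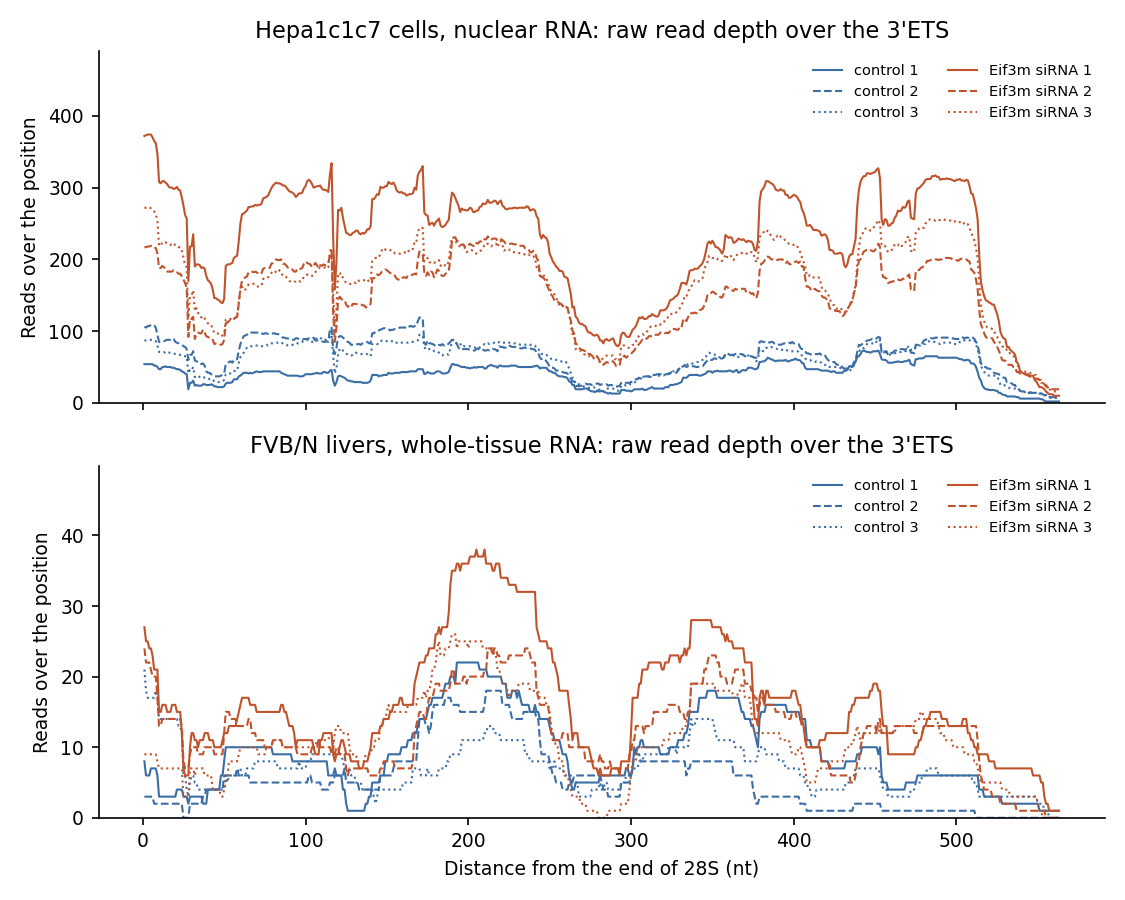
Raw read depth (reads over each position, unscaled) against distance from the end of 28S in nt, for the 6 cell libraries (top) and the 6 liver libraries (bottom); blue lines are control and orange lines Eif3m siRNA libraries, with 1 line style per replicate. The orange lines of the cells run above the blue ones along the whole spacer, whereas orange and blue lines of the livers cross in places and stay at or below 38 reads.

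In Hepa1c1c7 cells the 3′ETS rose nearly 3-fold after Eif3m siRNA, and it rose by about the same factor along its whole length. Its share of the depth summed over the precursor was 0.0160%, 0.0212% and 0.0204% in control replicates 1, 2 and 3. After knockdown the share was 0.0614%, 0.0467% and 0.0543%. The lowest knockdown library was thus more than 2 times the highest control library. The means were 0.0192% ± 0.0028 and 0.0541% ± 0.0074 (SD, n = 3 each), a difference of 1.50 ± 0.17 on the log2 scale (SE), or 2.82-fold. The exact two-sided permutation p was 0.1, the smallest that 3 against 3 libraries allow, and 0.4 after Benjamini-Hochberg adjustment over the 8 ratios of depths computed here. Relative to 28S, the mature rRNA next to it, 3′ETS depth averaged 0.284% ± 0.045 in control cells and 0.851% ± 0.129 in knockdown cells (SD, n = 3 each), with no overlap.

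The rise in cells was seen at each position. Scaled to summed depth, all 3 knockdown libraries lay above all 3 controls at 563 of 563 positions of the 3′ETS, where 51.8% of all 13400 positions did so. In 28 windows of 20 nt the ratio of mean scaled depths ran from 2.53 to 3.13, with a median of 2.85. The lowest of these ratios lay at 61 to 80 nt and the highest at 261 to 280 nt, where the spacer was shallow. Neighbouring positions share reads, so these counts describe the evenness of the change and are not separate tests.

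By limma on log2(scaled depth + 1), with p-values adjusted over all 134 bins of 100 nt, 5 of 5 bins that lie wholly inside the 3′ETS rose in cells, against 50.7% of all bins (17.2% were lower). Bins are counted from position 1 of the reference. The median change was 1.48 over these 5 bins and 0.34 over all 134 bins. Positions 12901 to 13000 changed by 1.42 ± 0.21 (SE), 13001 to 13100 by 1.52 ± 0.20, 13101 to 13200 by 1.53 ± 0.17, 13201 to 13300 by 1.48 ± 0.20 and 13301 to 13400 by 1.45 ± 0.19. Differences between these 5 values were smaller than their standard errors. The groups did not overlap in any of the 5 bins (52.2% of all bins). Adjusted p-values from limma lay between 3.1e-16 and 5.9e-11. Neighbouring bins share reads and move together, so these p-values are smaller than 3 libraries per group warrant. They also lean on the variance trend over all bins (406 prior against 4 residual degrees of freedom), and without that trend limma gave adjusted p between 0.00083 and 0.0043. With median-of-ratios scaling, which sets the median of all bins near 0, the median change was 1.14. With it 5 of 5 bins were still called higher, against 65 of all 134. The bin at 12801 to 12900, which holds the end of 28S and the first 63 nt of the spacer, differed by 0.23 ± 0.23 (SE; limma adjusted p = 0.36), without overlap of the groups. Most of its depth comes from 28S (mean log2 of 9.96 in control cells, against 5.27 to 6.18 in the 5 bins). The first 63 nt of the spacer alone had a mean raw depth of 54.6 reads in control cells and 187 after knockdown.

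**Figure D2:**
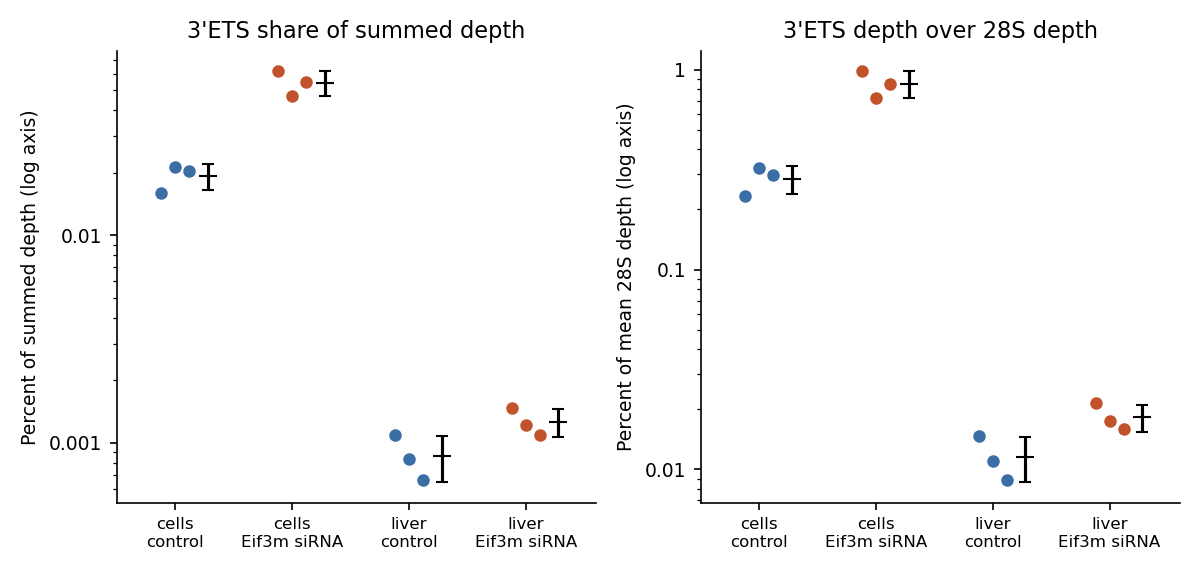
Left, 3′ETS share of summed depth in percent; right, mean 3′ETS depth in percent of mean 28S depth; both on log axes, with 1 point per library and the mean ± SD of the 3 libraries beside each group. The 3 Eif3m siRNA libraries of the cells lie above their controls in both panels, and the liver groups meet at 0.0011% in the left panel but not in the right.

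In liver the 3′ETS was higher after Eif3m siRNA in the mean, by about 1.5-fold, but the groups were not separated on every scale. Its share of summed depth was 0.00110%, 0.000837% and 0.000663% in control livers 1, 2 and 3, and 0.00148%, 0.00122% and 0.00109% after knockdown. Knockdown liver 3 fell just below control liver 1, and the other values were ordered by group. The difference was 0.57 ± 0.25 on the log2 scale (SE), or 1.48-fold (exact two-sided permutation p = 0.2, adjusted p = 0.4). Relative to 28S the groups were apart, at 0.0116% ± 0.0029 and 0.0183% ± 0.0028 (SD, n = 3 each). The ratio differed by 0.68 ± 0.24 on the log2 scale (SE; exact permutation p = 0.1, adjusted p = 0.4). In RNA of whole liver, more spacer RNA per cell and a changed mix of cell types cannot be told apart.

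At single positions of the liver 3′ETS, the 3 knockdown libraries lay above the 3 controls at 123 of 563 positions (21.8%), and at 440 they did not. Over all 13400 positions this share was 49.2%. No position showed the opposite order. The ratio of mean scaled depths over 28 windows of 20 nt had a median of 1.42, with a lowest value of 0.845 at 281 to 300 nt. Groups were apart in 5 of these windows, 4 of which lie next to each other between 441 and 520 nt, with ratios of 2.17, 3.15, 2.58 and 2.42. The other was at 101 to 120 nt, with a ratio of 1.21. In the 4 neighbouring windows control livers averaged only 5.17, 3.23, 4.45 and 3.45 raw reads per position. Their lowest library there stood at 1.65, 1, 1 and 0.55. Knockdown livers averaged 13.3, 11.9, 13.1 and 9.55. How often such windows were apart over the whole precursor was not computed.

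Among the bins, 2 of 5 rose in liver by limma, against 52.2% of all 134 bins, and both lay toward the end of the transcript. Positions 13301 to 13400 changed by 1.25 ± 0.40 (SE; limma adjusted p = 0.0037) and 13201 to 13300 by 0.79 ± 0.36 (SE; limma adjusted p = 0.040). The other bins gave 0.40 ± 0.36 for 12901 to 13000, 0.43 ± 0.31 for 13001 to 13100 and 0.32 ± 0.34 for 13101 to 13200 (SE), with limma adjusted p between 0.21 and 0.42. Without control liver 3 these 3 changes were 0.27, 0.04 and 0.15, and without Eif3m siRNA liver 1 they were 0.34, 0.28 and 0.16. The median was 0.43 over the 5 bins and 0.19 over all bins, and groups did not overlap in 2 of 5 bins (51.5% of all bins). Those without overlap were 12901 to 13000 and 13301 to 13400, and at 13201 to 13300 the groups overlapped. Control livers had a raw depth of 0.48 to 3.87 reads per position in the last bin, and knockdown livers one of 7.34 to 9.03. Control liver 2 supplied the lowest of these values. Without it the change at 13301 to 13400 was 0.75 (limma adjusted p = 0.022), and the call at 13201 to 13300 was lost (0.42, limma adjusted p = 0.19) while 13001 to 13100 gained one (0.65, limma adjusted p = 0.033). The call at 13201 to 13300 was also lost without control liver 3 (0.71), Eif3m siRNA liver 1 (0.70) or Eif3m siRNA liver 2 (0.77), with limma adjusted p between 0.12 and 0.15. Without the variance trend 0 of 5 liver bins were called by limma (smallest adjusted p = 0.052, at 12901 to 13000). Over all 134 bins 62 were called higher in that fit. The unadjusted limma p was then 0.031 at 12901 to 13000, 0.036 at 13301 to 13400 and 0.11 at 13201 to 13300.

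**Figure D3:**
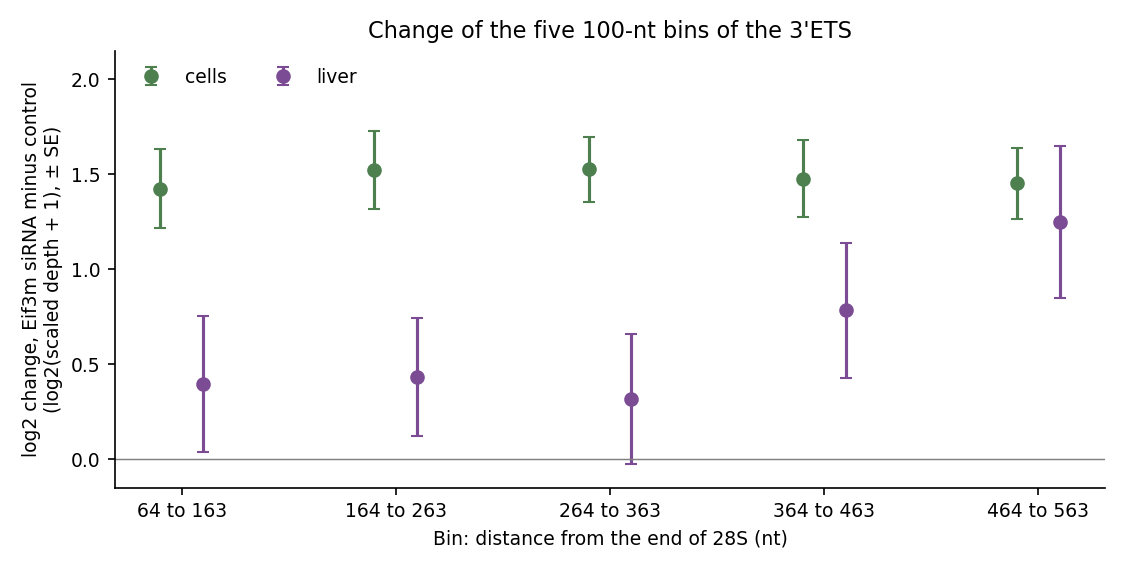
log2 change of Eif3m siRNA minus control, on log2(scaled depth + 1), for the 5 bins of 100 nt inside the 3′ETS, placed by distance from the end of 28S; points are limma estimates and bars their SE, green for cells and purple for liver. Cells stay between 1.42 and 1.53 in all bins, and liver runs from 0.32 at 264 to 363 nt to 1.25 at 464 to 563 nt.

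A change averaged over cells and liver does not show a rise in each, and the share changed by 1.50 in cells and 0.57 in liver (log2). On that average the 3′ETS rose. With labels exchanged within each system, its share of summed depth differed by 1.03 ± 0.15 on the log2 scale (SE; exact permutation p = 0.01, adjusted p = 0.04) and its depth relative to 28S by 1.13 ± 0.15 (SE; exact permutation p = 0.005, the smallest possible, adjusted p = 0.04). The share was higher in 6 of 6 knockdown libraries than the mean of their controls. The other 6 ratios of the 3′ETS did not pass, with exact permutation adjusted p of 0.4 or more, but the ratio to ITS2 passed without control liver 1 (0.21, exact permutation adjusted p = 0.04). Both calls were lost with 10 reads added to every position (0.72 and 0.82, exact permutation adjusted p = 0.072 and 0.053), and that on the share with median-of-ratios scaling (0.78, exact permutation adjusted p = 0.06). The call on the share was lost without control liver 3 (0.94), Eif3m siRNA liver 1 (0.97) or Eif3m siRNA liver 2 (1.04), and that relative to 28S without Eif3m siRNA liver 1 (1.07) or Eif3m siRNA liver 2 (1.15), each time with an exact permutation adjusted p of 0.06. In the limma fit of all 12 libraries 5 of 5 bins rose on the average of both systems, against 55.2% of all bins (20.9% were lower). Changes were 0.90 to 1.29, with limma adjusted p between 1.3e-07 and 4.3e-05. These p-values also lean on the variance trend (57 prior against 8 residual degrees of freedom). Without that trend limma gave adjusted p between 0.00021 and 0.0014.

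The change was smaller in liver than in cells in each of the 5 bins of the 3′ETS, and the difference was called in the 3 nearest to 28S. The bins were not tested against each other. By limma the difference between systems, liver minus cells, was -1.06 ± 0.40 at 12901 to 13000, -1.11 ± 0.40 at 13001 to 13100 and -1.23 ± 0.40 at 13101 to 13200 (SE; adjusted p = 0.028, 0.022 and 0.0094). Thus 3 of 5 bins were called lower, against 29.9% of all bins. Without the variance trend limma called 2 of 5 lower, against 28 of all 134 bins. For the last bins the difference was -0.75 ± 0.41 at 13201 to 13300 and -0.34 ± 0.42 at 13301 to 13400 (SE; limma adjusted p = 0.13 and 0.56). These last values moved with the settings: without control liver 2 they were -1.09 (limma adjusted p = 0.014, called) and -0.77 (limma adjusted p = 0.078), without control liver 1 they were -0.35 and -0.09, and with a pseudocount of 10 they were -1.14 and -1.07, both called. That pseudocount exceeds the raw liver depth at 13301 to 13400, at most 9.03 reads per position. It took the change there from 1.25 to 0.43 in liver and from 1.45 to 1.31 in cells. The count of bins called lower fell to 1 of 5 without control cells 1, Eif3m siRNA cells 1 or Eif3m siRNA liver 2. Over all 134 bins it was then 21, 25 and 27. The bin at 13101 to 13200 was called whichever single library was left out (limma adjusted p at most 0.042). The RNA fraction, the dose and the time since siRNA differed between cells and livers too, and cannot be told apart from the tissue.

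In cells the depth of the 3′ETS relative to the other spacers differed by 0.0040 to 0.12 after knockdown (log2). The exact test of 3 against 3 libraries allows no p below 0.1, so it could not call such a difference at 0.05. Against ITS2, the spacer between 5.8S and 28S, the 3′ETS stood at 4.50%, 4.28% and 4.93% in control cells. After knockdown it stood at 4.86%, 5.14% and 4.89%. These ranges overlapped, and the log2 difference was 0.12 ± 0.07 (SE; exact permutation p = 0.3). It ran from 0.076 to 0.18 with 1 cell library left out. Without control cells 3 it was 0.18 ± 0.04 (SE) with the groups apart (exact permutation p = 0.1, the smallest then possible, adjusted p = 0.27). Against ITS1, between 18S and 5.8S, the control mean was 8.12% ± 0.37 and the knockdown mean 8.42% ± 0.33 (SD, n = 3 each). The ratio differed by 0.05 ± 0.05 on the log2 scale (SE; exact permutation p = 0.5). The 5′ETS lies at the other end of the precursor, and relative to it the 3′ETS averaged 7.18% ± 0.40 in control cells and 7.20% ± 0.22 in knockdown cells (SD, n = 3 each). This ratio differed by 0.0040 ± 0.0535 on the log2 scale (SE; exact permutation p = 1). On the share of summed depth the 3′ETS of the cells changed by 1.50 ± 0.17, while the 5′ETS changed by 1.49 ± 0.20, ITS1 by 1.45 ± 0.20 and ITS2 by 1.38 ± 0.20 (log2, SE). Each of these errors is wider than that of the ratios above, which compare spacers within a library. Beyond those ratios, differences between the spacers were not tested.

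In liver the ratios to other spacers varied more between libraries. The 3′ETS stood at 5.09%, 3.48% and 3.52% of ITS2 depth in controls and at 4.49%, 4.33% and 4.10% after knockdown. Its depth relative to the 5′ETS was 13.9%, 9.71% and 9.57% in controls and 9.52%, 9.12% and 9.20% after knockdown. Control liver 1 was the highest in each of these ratios. The groups did not overlap in the ratio to the 5′ETS, which differed by -0.23 ± 0.18 on the log2 scale (SE; exact permutation p = 0.1, adjusted p = 0.4), and by -0.06 without control liver 1. The ratio to ITS1 differed by -0.15 ± 0.17 (SE; exact permutation p = 0.5) and the ratio to ITS2 by 0.12 ± 0.18 (SE; exact permutation p = 0.5). Without control liver 1 the ratio to ITS1 differed by 0.0022, and that to ITS2 by 0.30 ± 0.04 (SE) with the groups apart (exact permutation p = 0.1, the smallest then possible, adjusted p = 0.27). The ratio to ITS2 differed by 0.02 without control liver 2 and by 0.03 without control liver 3. The liver 3′ETS share of summed depth differed by 0.57 ± 0.25, and that of the 5′ETS by 0.80 ± 0.15, of ITS1 by 0.72 ± 0.12 and of ITS2 by 0.45 ± 0.14 (log2, SE), so the 3′ETS had the widest error of the 4 spacers.

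**Figure D4:**
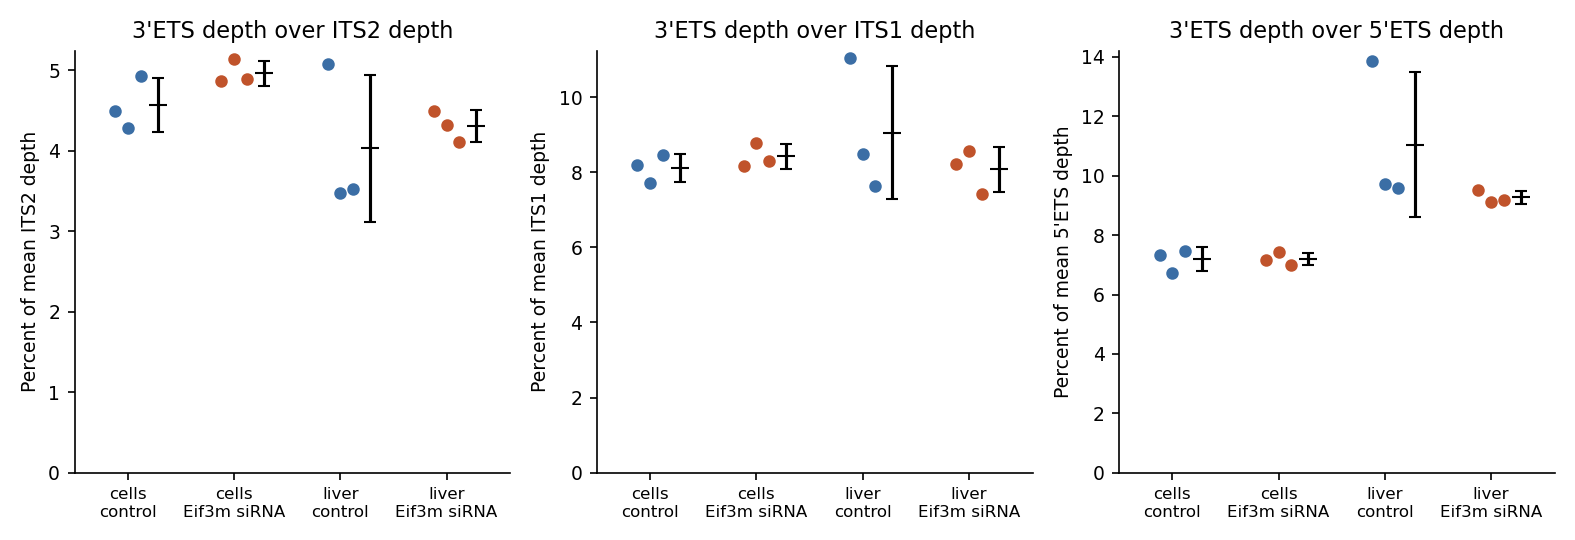
Mean 3′ETS depth in percent of mean ITS2, ITS1 and 5′ETS depth (left to right, axes from 0), with 1 point per library and the mean ± SD of 3 libraries beside each group; blue is control and orange Eif3m siRNA. Groups of the cells overlap in all 3 panels, and control liver 1 is the highest point of its group in each.

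Between the systems, the 3′ETS share of summed depth was 22.2 times higher in control cells than in control livers, and 42.8 times higher after knockdown. Relative to ITS2 the ranges overlapped, with 4.28% to 5.14% in the 6 cell libraries and 3.48% to 5.09% in the 6 liver libraries. Relative to the 5′ETS they did not, with 6.72% to 7.48% in cells and 9.12% to 13.9% in livers. These are descriptions with no test, because nuclear and whole-tissue RNA are compared.

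At the 28S edge the mean log2 depth of all libraries fell by 5.50 between the 20 nt on either side. Depth at the first spacer position was 54, 106 and 87 reads in control cells, against 234, 246 and 313 at the last 28S position. In Eif3m siRNA cells it was 372, 217 and 272 reads, against 572, 383 and 457. Depth at the first spacer position was thus 23.1% to 43.1% of that at the last 28S position in control cells. In knockdown cells it was 56.7% to 65.0%, without overlap. In livers it was 0.875% to 3.20% in controls and 1.28% to 3.69% after knockdown, and these ranges overlapped. These are not percentages of 28S depth, because the last 28S position was itself far shallower than the 28S mean. That mean was 17058 to 23138 reads per position in cells and 48493 to 78902 in livers. The measure across the edge was added after the depths were seen and was not tested. The first 20 nt of the spacer were 133% ± 9 as deep as the rest in control cells and 142% ± 8 in knockdown cells (SD, n = 3 each). The ratio differed by 0.10 ± 0.08 on the log2 scale (SE; exact permutation p = 0.2). In liver this ratio ran from 41.9% to 234% in controls and from 70.2% to 141% after knockdown (exact permutation p = 0.7), and the groups overlapped. The log2 difference of 0.42 ± 0.85 (SE) was 1.21 without control liver 3 and -0.03 without control liver 2.

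Inside the spacer the shape of the profile differed in part between the systems. In cells, depth relative to the mean of the 3′ETS was 1.18 over bin 12901 to 13000, 1.19 over 13001 to 13100, 0.644 over 13101 to 13200, 1.16 over 13201 to 13300 and 0.838 over 13301 to 13400 (means of 6 libraries). A trough lay at 281 to 300 nt, where the 6 cell libraries stood at 0.335 to 0.401 of their mean. The 6 liver libraries were low there too, at 0.127 to 0.772 (mean 0.545). In livers the same bins stood at 0.863, 1.75, 1.11, 0.913 and 0.479. The liver profile peaked at 201 to 220 nt, at 1.67 to 3.08 times the mean of each library against 1.10 to 1.49 in cells, and a further peak at 341 to 360 nt reached 1.49 to 1.85 against 0.878 to 1.14 in cells. Correlations of depth over the 563 positions had a median of 0.93 among cell libraries (0.76 to 0.96), 0.78 among liver libraries (0.47 to 0.89) and 0.45 between cells and livers (0.12 to 0.70). Neighbouring positions share reads and the positions share base composition, so these correlations only describe likeness. Peaks and trough were picked after their values were seen and were not tested.

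**Figure D5:**
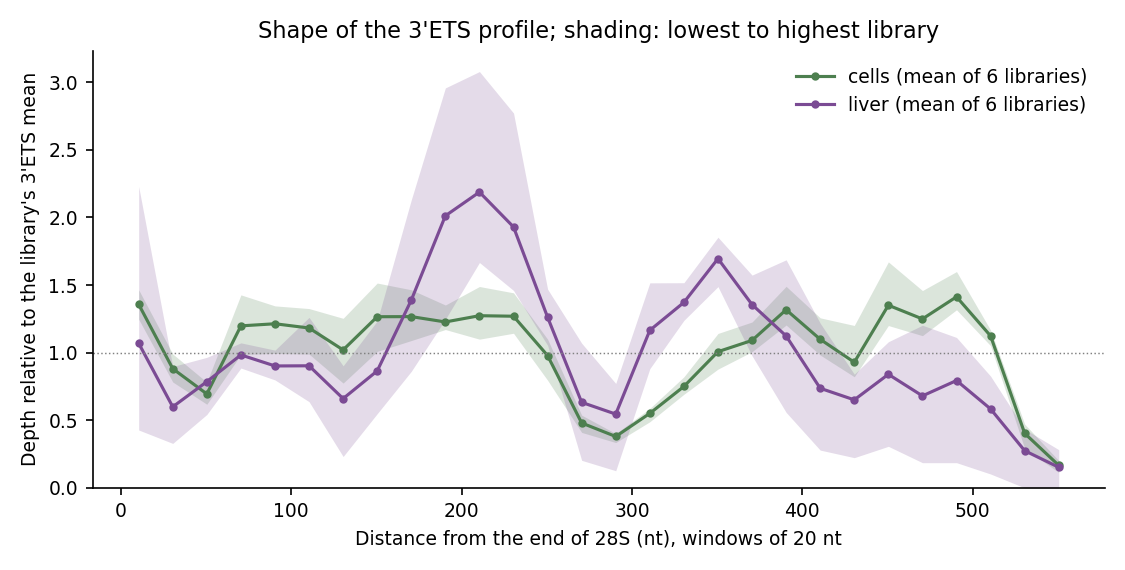
Depth in windows of 20 nt relative to the mean 3′ETS depth of each library, against distance from the end of 28S in nt; lines are means of the 6 cell (green) or 6 liver (purple) libraries, and shading runs from the lowest to the highest library. Livers peak at 201 to 220 nt, where all 6 lie between 1.67 and 3.08. At 281 to 300 nt cells fall to 0.335 to 0.401 and livers to 0.127 to 0.772.

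Over both systems the balance along the spacer was not called. The first 281 nt over the last 282 nt differed by -0.15 ± 0.20 (log2, SE; exact permutation p = 0.65, adjusted p = 0.725). The last 100 nt over the rest differed by 0.59 ± 0.43 (log2, SE; exact permutation p = 0.17, adjusted p = 0.4). Within a system 3 against 3 libraries allow no p below 0.1, so the tests that follow could not pass at 0.05. The first 281 nt were 100%, 134% and 127% as deep as the last 282 nt in control cells and 127%, 126% and 110% in knockdown cells. The ratio differed by 0.01 ± 0.15 on the log2 scale (SE; exact permutation p = 1). In control livers the values were 115%, 253% and 122%, with control liver 2 far above the others, and in knockdown livers 128%, 116% and 127%. The log2 difference was -0.31 ± 0.37 (SE; exact permutation p = 0.9), and 0.05 without control liver 2. The last 100 nt stood at 81.9% ± 3.4 of the rest in control cells and at 80.1% ± 5.8 after knockdown (SD, n = 3 each; exact permutation p = 0.6). In livers they stood at 37.0%, 7.46% and 50.3% in controls and at 49.9%, 55.3% and 62.3% after knockdown. These groups overlapped (log2 difference 1.21 ± 0.86, SE; exact permutation p = 0.2), and without control liver 2 the difference was 0.37. The deepest position differed between libraries. It lay at 13280, 13007 and 12953 in control cells 1, 2 and 3, and at 12840, 13049 and 12840 in knockdown cells. In control livers it lay at 13030, 13048 and 12838, and in knockdown livers at 13042, 12838 and 13027. Close to the end of the reference, at position 13397, cells held 2 to 19 reads and livers 0 or 1.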

How the data were processed

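The authors deposited 1 table of coverage signal, the whole number of reads over each of 13400 positions in 12 libraries, unscaled. The submitters' processing notes list BWA 0.7.12 and SAMtools 1.3. For neither tool do the sources used here give options, nor the reference sequence or how duplicates and multiply mapped reads were handled. rRNA genes are repeated, so the last point could change depths. The library kit was Clontech pico, used without the ZapR step, per the labels' protocols. No sequence of the spacer is printed. The 85 empty cells were read as 0. Columns were matched to samples by the code in each title, and 0 were left unused.

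Regions were placed from steps of mean log2(depth + 1), 20 nt against 20 nt. For 8 ratios of region means, differences of mean log2 values got an exact permutation test, two-sided (Benjamini-Hochberg over the 8). Bins of 100 nt were scaled to the mean summed depth of the libraries in the fit and fitted with limma 3.58.1 (eBayes with trend, R 4.3.3) on log2(scaled depth + 1), with no depth filter, and called at an adjusted p under 0.05 over 134 bins. The script was tested on simulated data. For the bins these were drawn independently, whereas real neighbouring bins share reads, so this does not check the p-values for that. All bins inside the spacer and all 8 ratios are named. The region, the bins and the tests were chosen with earlier results of these data known. Same-numbered libraries were not treated as pairs. Liver depths of a few reads carry a large counting error, and 0 pairs of libraries were identical.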

Additional observations from a re-analysis of the deposited data

Results flagged for a closer look

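For 3 bins of the 3′ETS the change after Eif3m siRNA differed between liver and cells by limma's test of that difference. Liver minus cells was -1.06 for positions 12901 to 13000, -1.11 for 13001 to 13100 and -1.23 for 13101 to 13200 (log2). With the replicate number as a block only the last of these was called. With that block 23 of all 134 bins were called lower, against 40 without it. No test for single outlying libraries was run, since each group holds 3.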

How the results depend on the processing

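In the sentences below, values are log2 differences unless called bins. With 10 reads added to every position, the changes over both systems fell to 0.72 for the share and 0.82 relative to 28S, neither of them called, and the ratios to ITS2, ITS1 and the 5′ETS became -0.17, -0.31 and -0.36, the last 2 called. Within cells these ratios turned to -0.037, -0.10 and -0.15, and in liver that to ITS2 to -0.31. The 10 added reads exceed the mean 3′ETS depth of every control liver (5.37 to 9.28 reads per position). The ratio to the 5′ETS in cells was -0.013 with 1 read added. The first part over the last in cells was -0.017 with median depths and -0.011 without the last 100 nt. Median-of-ratios scaling gave 0.78 for the share over both systems, no longer called. Bins of 50 nt gave 11 higher of 11 in cells, against 137 of all 268 bins, and over both systems, against 151. Between systems 6 of 11 were lower, against 76 of all 268. In liver, 1 bin was called with a pseudocount of 10 or median-of-ratios scaling and 0 with a mean depth of at least 10 (2 bins tested, neither with an unadjusted p under 0.05) or without the trend. Higher calls over all 134 bins numbered 69 and 43 with that pseudocount and that scaling. They numbered 69 of 131 with that depth and 62 of 134 without the trend. Between systems 5 of 5 bins were lower with a pseudocount of 10, as were 63 of all 134 (40 with a pseudocount of 1). Leaving out 1 library gave 1 to 2 bins in liver, against 61 to 71 of all 134 bins. Between systems it gave 1 to 4 bins, against 21 to 54 of all 134. Over both systems it gave 0.94 to 1.12 for the share, 1.05 to 1.23 relative to 28S, 0.073 to 0.21 to ITS2 (called at 0.21, without control liver 1), -0.11 to 0.027 to ITS1 and -0.25 to 0.034 for the first part over the last. In cells it gave -0.043 to 0.034 to the 5′ETS, -0.11 to 0.094 for the first part over the last and -0.091 to 0.0036 for the last 100 nt. In liver it gave -0.27 to 0.0022 to ITS1, -0.51 to 0.055 for the first part over the last and -0.031 to 1.21 for the first 20 nt. The last 100 nt gave no value with median depths in liver, since the median of control liver 2 there is 0. The cause of these shifts was not tested.

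Replicate numbers did not pair the libraries: deviations of same-numbered libraries from their group means correlated at -0.82, -0.75 and 0.05 in cells and at 0.23, -0.15 and 0.39 in liver, and 3 of 12 libraries correlated best with their own number. With a replicate block the share over both systems (1.03) and the depth relative to 28S (1.13) had a sign-flip adjusted p of 0.125 in this exact test, which gives no p below 0.03125. By limma with that block 1 of 5 bins was lower between systems, against 23 of all 134. The counts in cells (5), liver (2) and both systems (5) were equal with and without the block. Over all 134 bins they were 67, 72 and 76 with the block and 68, 70 and 74 without it.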

Other observations

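All 85 empty cells of the table lie in the 3′ETS of 4 liver libraries: 52 in control liver 2, 7 in control liver 3, 9 in Eif3m siRNA liver 2 and 17 in Eif3m siRNA liver 3. In control liver 2 a further 4 positions, 25 to 28 nt after 28S, are written as 0. The 3′ETS made up 0.572% to 0.640% of all spacer depth in control cells and 0.612% to 0.647% in knockdown cells, and 0.652% to 0.939% in control livers and 0.669% to 0.713% in knockdown livers.

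A narrow drop of depth at 118 nt after 28S was seen in the 6 cell libraries. At 116 and then 118 nt, depth went from 46 to 24, from 105 to 68 and from 95 to 41 reads in control cells, and from 334 to 158, from 210 to 85 and from 216 to 106 in knockdown cells. In livers it went from 6 to 7, from 5 to 6 and from 9 to 9 in controls, and from 12 to 8, from 9 to 9 and from 12 to 12 after knockdown. Among the livers depth fell only in Eif3m siRNA liver 1, and each of these liver depths rests on at most 12 reads. Depth over all cell libraries at 118 nt was 0.600 of the median of the 10 nt on each side. At 28 nt both systems dropped, to 0.689 of that median in cells and 0.56 in livers, the latter on 21 reads in all. These positions were picked for their values, and no test was made.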
